A study of Mus musculus with 8 samples.

Results

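Apoc1, Hsd11b1, Inmt, Defb28, Dmbt1, Adamts16, Serpina10 and Fetub are 8 of the 35539 genes listed for these tumors, and they were selected on a large rise of their TPM, a measure of the share of all transcripts, in the 4 tumors treated with rapamycin over the 4 without it. Apoc1, Defb28, Dmbt1, Adamts16, Serpina10 and Fetub code for secreted proteins, and Hsd11b1 and Inmt for enzymes that act on small molecules. All 8 passed the filter on low values, which kept the 15095 genes that reached 1 TPM in 2 tumors or more. The measurements that picked them are those of all 8 tumors, so their rapamycin difference is given as a description, with no test.

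RNA was sequenced from 8 subcutaneous tumors of 105K cells, a Tsc2-deficient line from a mouse kidney tumor, grown in female C57BL/6J mice with a working immune system, and a single line stands behind all 8. Tsc2 is a brake on the kinase complex mTORC1, which rapamycin inhibits, and loratadine is an antihistamine that blocks the receptor HRH1. There were 2 tumors for each of 4 treatments. A3L and C1R received both drugs, D1L and G3L rapamycin at 0.25 mg/kg/day, B3R and F3R loratadine at 25 mg/kg/day, and B1L and F5L the vehicle, a carboxymethylcellulose solution that also carried the drugs, which were combined at the same doses. By the labels both drugs were given intraperitoneally, while the methods of the paper give loratadine by mouth. The codes name the cage, the animal and the side, and the cages with rapamycin (A, C, D and G) are none of those without it (B and F), so cage and rapamycin cannot be told apart. All 3 tumors of the right side had received loratadine. The methods also state that rapamycin and its combinations were begun at larger tumor volumes than the single treatments, so the volume at the start cannot be told apart from rapamycin either.

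The depth of the libraries is unknown, since TPM keeps none, and the precision rests on 2 tumors per treatment. Tsc2 was read at 42.03 to 78.08 TPM in the 8 tumors, but a value for the whole gene does not show whether the deleted part was transcribed, and host cells carry the gene too. The labels call the tissue a mammary tumor. Of 10 mammary epithelial markers 4 passed the filter, Wap was at 0 in every tumor, and the summed level was 4.241 to 18.9 TPM with rapamycin and 14.99 to 174.6 TPM without it. Csn3, a casein, reached 173.9 TPM in B1L and Krt14, a keratin of basal epithelium, 39.57 TPM in F5L, while Csn2, Csn1s1 and Lalba stayed near 0. Pax8, a kidney transcription factor, was at 41.53 to 62.76 TPM with rapamycin and 23.87 to 45.63 TPM without it. These markers do not settle the tissue, and the samples are called tumors here. Since these are bulk samples, fewer cells of a type and less RNA per cell cannot be told apart.

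Apolipoprotein C1 rides on lipoprotein particles and slows their uptake, and it is made mainly by liver and by macrophages. Hsd11b1 is the reductase of the endoplasmic reticulum that regenerates active glucocorticoid from its inert keto form, with NADPH supplied by H6pd, and Inmt moves methyl groups from S-adenosylmethionine (SAM) to amines such as tryptamine. Defb28 is a beta-defensin, one of a family of small cationic peptides of epithelial defence, and Dmbt1 is a large mucin-like scavenger receptor cysteine-rich protein of epithelial surfaces. Adamts16 is a secreted metalloprotease, Serpina10 is the inhibitor of coagulation factor Xa that works with protein Z, and Fetub is a plasma protein of the cystatin superfamily that inhibits the protease ovastacin.

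The 8 genes lie on 7 chromosomes (NCBIM37, mm9). Apoc1 is at chr7:20274833-20278007 (minus strand), Hsd11b1 at chr1:195047824-195090248 (minus), Inmt at chr6:55120620-55125037 (minus) and Defb28 at chr2:152343991-152347183 (plus). Dmbt1 is at chr7:138175590-138265140 (plus), Adamts16 at chr13:70866680-70980689 (minus), Serpina10 at chr12:104854885-104869654 (minus) and Fetub at chr16:22918455-22939839 (plus). Hsd11b1 overlaps the noncoding genes 4930570N18Rik and 1600010F14Rik, and Dmbt1 overlaps Fgfr2, each on the opposite strand, and reads of such partners could not be separated here, because whether the values were made with strand is not given in the sources used here.

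The promoters of 4 of the genes, taken from RefSeq (GRCm38.p6) as 250 bases before and 50 after the start of transcription, are shown because the 8 genes were high in the same tumors. They are Hsd11b1 at chr1:193242311-193242610 (minus strand), Inmt at chr6:55174941-55175240 (minus), Defb28 at chr2:152518005-152518304 (plus), and Fetub with its first start at chr16:22918132-22918431 and its second at chr16:22919972-22920271 (plus). Each runs 5′ to 3′ along the gene, and capitals mark matches on either strand to 5 motifs, the TATA box TATAAA, the CCAAT box CCAAT, the E-box CACGTG, the forkhead site TGTTTAC and the glucocorticoid receptor half-site TGTTCT, and no match overlaps another.
Hsd11b1: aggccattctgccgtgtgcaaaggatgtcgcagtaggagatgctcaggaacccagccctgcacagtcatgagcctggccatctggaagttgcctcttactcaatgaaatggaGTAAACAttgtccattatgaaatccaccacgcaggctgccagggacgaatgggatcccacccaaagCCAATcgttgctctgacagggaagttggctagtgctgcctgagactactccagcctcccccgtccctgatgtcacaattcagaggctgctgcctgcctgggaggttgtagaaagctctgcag
Inmt: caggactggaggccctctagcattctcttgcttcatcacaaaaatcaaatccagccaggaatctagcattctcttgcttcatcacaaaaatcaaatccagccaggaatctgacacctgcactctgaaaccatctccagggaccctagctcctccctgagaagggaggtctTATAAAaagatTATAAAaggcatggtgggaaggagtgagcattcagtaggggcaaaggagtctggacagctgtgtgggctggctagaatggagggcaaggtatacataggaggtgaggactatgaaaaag
Defb28: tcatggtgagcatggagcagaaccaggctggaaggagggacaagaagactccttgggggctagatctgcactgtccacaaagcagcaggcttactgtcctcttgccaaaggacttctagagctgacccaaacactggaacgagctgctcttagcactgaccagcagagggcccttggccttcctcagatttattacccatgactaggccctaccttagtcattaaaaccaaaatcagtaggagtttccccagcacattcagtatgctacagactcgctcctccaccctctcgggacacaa
Fetub, first start: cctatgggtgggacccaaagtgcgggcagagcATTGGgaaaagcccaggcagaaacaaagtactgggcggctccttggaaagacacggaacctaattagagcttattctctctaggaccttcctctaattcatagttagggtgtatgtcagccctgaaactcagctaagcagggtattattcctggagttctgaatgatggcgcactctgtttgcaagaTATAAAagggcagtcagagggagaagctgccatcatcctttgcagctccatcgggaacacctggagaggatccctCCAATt
Fetub, second start: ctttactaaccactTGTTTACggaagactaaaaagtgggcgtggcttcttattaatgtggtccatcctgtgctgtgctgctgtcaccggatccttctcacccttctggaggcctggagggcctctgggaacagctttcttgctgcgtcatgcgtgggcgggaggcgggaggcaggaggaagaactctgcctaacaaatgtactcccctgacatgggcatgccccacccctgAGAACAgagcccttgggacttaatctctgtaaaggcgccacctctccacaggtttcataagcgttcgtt
TATAAA occurred in Inmt, 80 and 69 bases before the start, and in the first promoter of Fetub, 31 bases before it, and 13.6% of 32851 promoters of this length hold it. CCAAT occurred in Hsd11b1 and in the first promoter of Fetub (37.4% of promoters). The forkhead letters stood in Hsd11b1, 138 bases before the start, and in the second promoter of Fetub, 236 bases before it (3.65% of promoters). TGTTCT occurred in the second promoter of Fetub, 19 bases before the start (19% of promoters), and CACGTG (7.15% of promoters) in none of the 5. No motif was thus shared by all 4 genes, and Defb28 held none of these letters.

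Over all genes tested, 12% were higher and 7.88% lower with rapamycin at an adjusted p under 0.05 (limma on log2(TPM + 1), loratadine as the other term, Benjamini-Hochberg), and in 15.7% all 4 tumors with rapamycin lay above all 4 without it. All 8 genes are in the first and the last of these shares, from which nothing is read, since this contrast chose them. Their log2 fold changes ran between 3.23 and 5.91 with a median of 3.96, against a median of 0.12 over all genes tested. A log2 fold change on this scale understates the change of a gene with low values. There was no fixed threshold behind the choice, and Fetub (3.23) was the smallest rise taken. A ranking was made of genes higher at an adjusted p under 0.05 with all 4 tumors with rapamycin above all 4 without it. It also asked for a minimum mean TPM with rapamycin and left out predicted genes. In that ranking Pth1r (3.22) and C3 (3.15) came next below Fetub. There 2 genes, Kif12 (3.44) among them, lay inside the range without being taken.

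Apoc1 had the largest rise of the 8 genes on the log2(TPM + 1) scale, and the widest range of TPM. By the ratio of mean TPM with rapamycin to that without it, Apoc1 rose less (26.5) than Defb28 (108.4) and Dmbt1 (95.81). It was at 2124 and 203 TPM with both drugs, at 569.6 and 195.1 TPM with rapamycin, at 104.2 and 11.04 TPM with loratadine, and at 0.5841 and 0.8476 TPM with vehicle (tumors in the order A3L, C1R, D1L, G3L, B3R, F3R, B1L, F5L, kept below). In A3L it ranked 44 among all genes by TPM, and in the vehicle tumors it stood near or under 1 TPM. The lowest tumor with rapamycin was 1.872-fold above the highest without it, B3R, so the arms did not overlap, but B3R lay closer to the rapamycin tumors than to vehicle on a log scale. The log2 fold change was 5.91 with a standard error of 1.05. Of the marker lists, that of 8 adipocyte markers was singled out after its values were seen. In each arm the tumors ranked by Apoc1 as they did by its summed level, except that B1L and F5L changed places. That sum was 605.8 and 29.38 TPM with both drugs, 208.3 and 9.212 TPM with rapamycin, 850.2 and 534.6 TPM with loratadine, and 19.33 and 9.944 TPM with vehicle, and none of the 8 markers passed the rapamycin test. Of 11 macrophage markers none passed it, with sums of 1610 to 3689 TPM with rapamycin and 1211 to 3149 TPM without it. Whether adipocytes or macrophages had a part in the Apoc1 level was not tested.

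**Figure D1:**
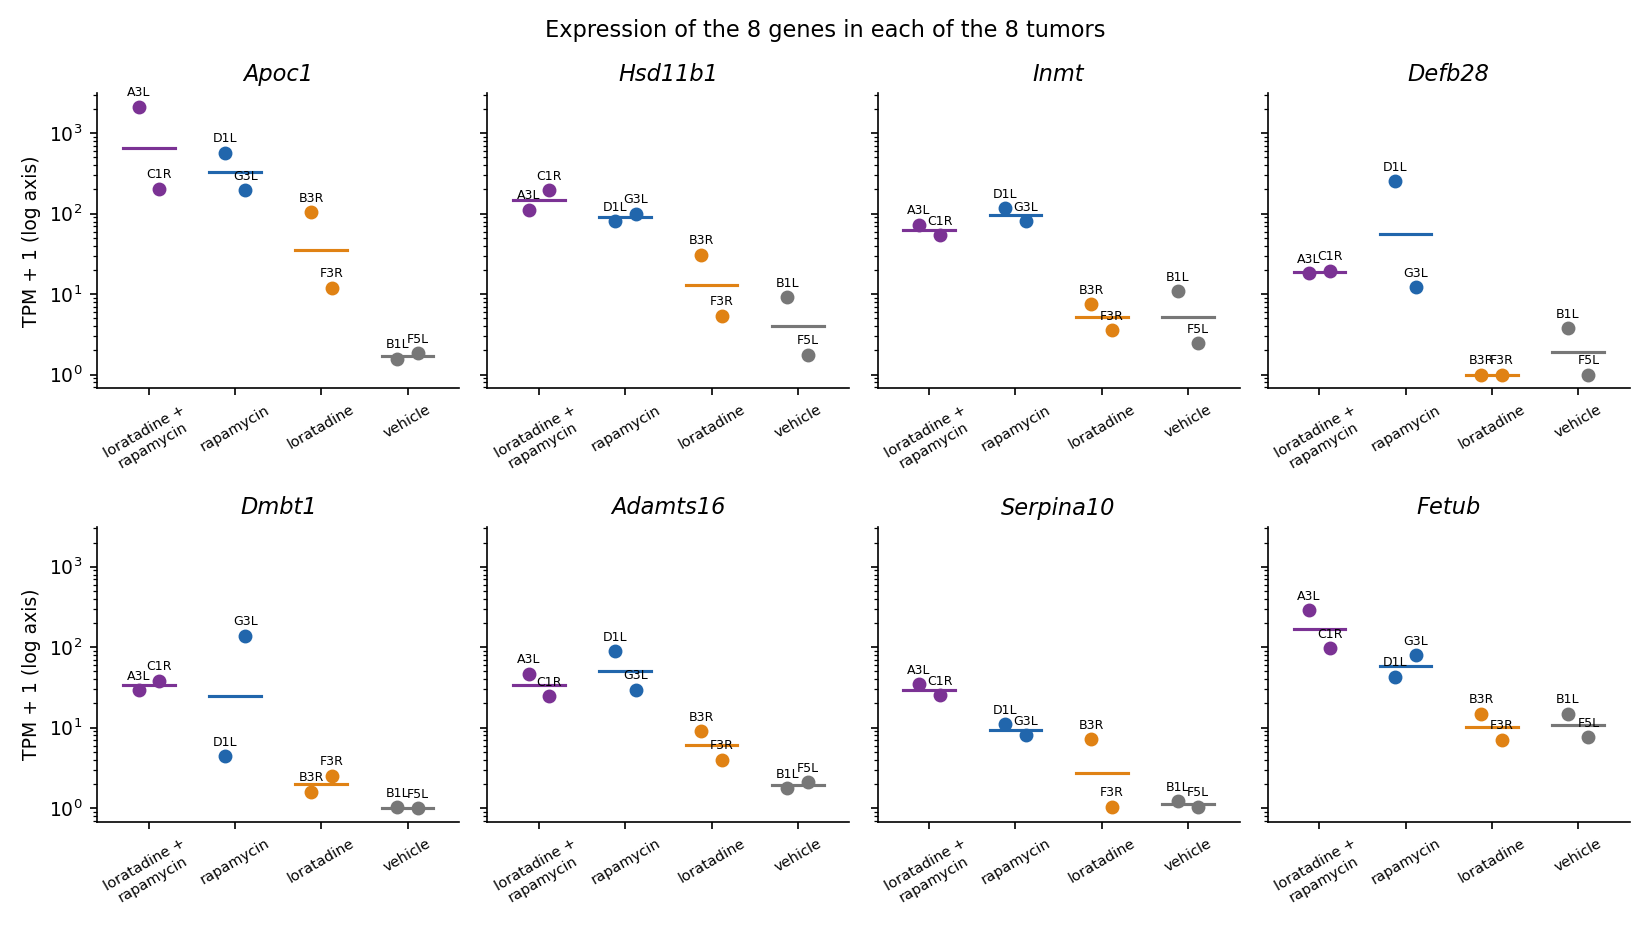
TPM + 1 of each of the 8 genes on a log axis. Each point is a tumor with its code, by treatment, and each line is the geometric mean of 2 tumors. In every panel the 4 tumors with rapamycin lie above the 4 without it, and for Apoc1 the loratadine tumors (104.2 and 11.04 TPM) stand between.

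Hsd11b1 and Inmt, the pair of enzymes, rose by similar amounts but with less spread inside the rapamycin arm than the other genes. Hsd11b1 was at 111 and 195.2 TPM with both drugs, 80.1 and 99.44 TPM with rapamycin, 29.94 and 4.429 TPM with loratadine, and 8.176 and 0.7721 TPM with vehicle. The tumors with rapamycin differed at most 2.436-fold among themselves, while those without it ran far wider, with F5L lowest and B3R highest. Its mean was 121.4 ± 50.79 TPM with rapamycin and 10.83 ± 13.09 TPM without it (SD, n = 4 each), and its log2 fold change 4.0 with a standard error of 0.66. Inmt was at 72.4 and 53.38 TPM with both drugs, 116.7 and 79.66 TPM with rapamycin, 6.495 and 2.552 TPM with loratadine, and 9.959 and 1.462 TPM with vehicle. It showed the widest gap between the arms of the 8 genes, with the lowest tumor of the rapamycin arm 5.36-fold above the highest of the other arm. Its mean was 80.52 ± 26.51 TPM with rapamycin and 5.117 ± 3.885 TPM without it (SD, n = 4 each), with a log2 fold change of 3.92 and a standard error of 0.47. Of 10 fibroblast markers 4 rose with rapamycin, and their sum was 663.1 to 4454 TPM with it and 352.5 to 1459 TPM without it. C1R had both the highest fibroblast sum and the highest Hsd11b1, and Dcn alone made 2624 TPM of that sum. Inmt ran the other way within the rapamycin arm. It was lowest in C1R (53.38 TPM) and highest in D1L (116.7 TPM), where the fibroblast sum of that arm was lowest (663.1 TPM). The part of fibroblasts in either gene was not tested.

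The pair of epithelial defence genes varied most among the tumors with rapamycin, and did so in opposite tumors. Defb28 was at 17.23 and 18.46 TPM with both drugs and at 251.3 and 11.13 TPM with rapamycin, and it was listed at 0 in B3R, F3R and F5L and at 2.749 TPM in B1L. D1L thus stood 22.58-fold above G3L, and 3 of the 4 tumors without rapamycin gave no value above 0. Its log2 fold change of 4.54, with a standard error (SE) of 0.86, rests on the pseudocount of 1, since most values of 1 arm are 0. Dmbt1 was at 28.46 and 37.26 TPM with both drugs, 3.439 and 137.8 TPM with rapamycin, 0.5927 and 1.535 TPM with loratadine, and 0.03252 and 0 TPM with vehicle. Its highest tumor was G3L, where Defb28 was lowest of the rapamycin arm, and its lowest of that arm was D1L, where Defb28 was highest. The log2 fold change was 4.34 with a standard error of 0.90.

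Dmbt1 also ranked all 8 tumors within their arms as Umod did, the gene of uromodulin, a protein of the thick ascending limb of the kidney, which was singled out after its values were seen. Umod was at 62.63 and 85.26 TPM with both drugs, 0.6665 and 144.4 TPM with rapamycin, 19.18 and 38.2 TPM with loratadine, and 0.4124 and 0.04163 TPM with vehicle. Epcam, an adhesion protein of epithelia, was likewise highest in G3L at 86.13 TPM and lowest of the rapamycin arm in D1L at 3.954 TPM. Of the 12 renal tubule markers 7 were tested and 2 rose with rapamycin, Pax8 among them, and Slc34a1 was at 0 in every tumor. Their sum was 348.3 to 598.7 TPM with rapamycin and 136 to 370.2 TPM without it, so the arms overlapped in the sum but not in Dmbt1. Of 10 markers of simple epithelium none rose and 1, Krt8, fell, with sums of 814.6 to 1958 TPM with rapamycin and 1220 to 2572 TPM without it. The part of these cells in Dmbt1 was not tested.

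Of the extracellular protease and the inhibitors, Adamts16 was at 45.98 and 23.58 TPM with both drugs, 87.58 and 28.59 TPM with rapamycin, 8.095 and 2.983 TPM with loratadine, and 0.7648 and 1.1 TPM with vehicle. It had its 2 lowest levels with vehicle, and its mean was 46.43 ± 29.06 TPM with rapamycin and 3.236 ± 3.384 TPM without it (SD, n = 4 each). Its log2 fold change was 3.62 with a standard error of 0.57. Serpina10 was at 33.8 and 24.38 TPM with both drugs, 10.11 and 7.067 TPM with rapamycin, 6.229 and 0.04109 TPM with loratadine, and 0.2222 and 0.0403 TPM with vehicle. Its arms came closest of the 8 genes, since G3L was only 1.135-fold above B3R, and both tumors with both drugs lay above both with rapamycin alone. Its log2 fold change was 3.25 with a standard error of 0.53. Fetub was at 285.1 and 95.58 TPM with both drugs, 42.25 and 78.32 TPM with rapamycin, 13.85 and 6.074 TPM with loratadine, and 13.99 and 6.675 TPM with vehicle. Without rapamycin its 4 levels stayed within a narrow band in both treatments, which set it apart from Apoc1 and Serpina10. Its mean was 125.3 ± 108.8 TPM with rapamycin and 10.15 ± 4.364 TPM without it (SD, n = 4 each), with a log2 fold change of 3.23 and a standard error of 0.50.

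Apoc1, Serpina10 and Fetub are abundant products of the liver, and of the defining hepatocyte genes Alb and Ttr were at or near 0 in these tumors. Of 10 hepatocyte markers 2 passed the filter and none passed the rapamycin test, and Ttr was at 0 in every tumor. Their summed level was 2.861 to 9.457 TPM with rapamycin and 1.424 to 18.98 TPM without it. Cyp2e1 made most of the highest sum, at 4.962 and 0.2407 TPM with both drugs, 3.201 and 0.2486 TPM with rapamycin, 16.79 and 8.606 TPM with loratadine, and 0.1187 and 0.1485 TPM with vehicle. Apoa2 was at 1.258 to 3.356 TPM with rapamycin and 1.275 to 2.329 TPM without it. Alb averaged 0.1317 ± 0.2085 TPM with rapamycin and 0.06604 ± 0.0557 TPM without it (SD, n = 4 each).

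The 8 genes were also more variable between tumors of the same treatment than most genes. The SD of log2(TPM + 1) within treatments had a median of 1.14 over the 8 genes, against 0.28 over all genes tested and 0.26 over the 1813 genes that were higher with rapamycin. A choice by the size of a difference in these same tumors favors genes with a wide spread, while a call by p favors a narrow one. The wider spread is therefore given as a description. No single tumor carried all the rises. A3L and D1L were each highest for 3 genes, C1R and G3L for 1 each, and within the rapamycin arm D1L and G3L were each lowest for 3 genes. Without rapamycin B3R was highest for 4 genes, B1L for 3 and F3R for 1, and F5L was lowest for 4 and shared the 0 of Defb28 with B3R and F3R. Summed over the 8 genes, the level was 2718 and 650.8 TPM with both drugs, 1161 and 637.1 TPM with rapamycin, 169.4 and 28.65 TPM with loratadine, and 36.48 and 10.9 TPM with vehicle. Across the 8 tumors the 28 pairs of genes had Pearson correlations of log2(TPM + 1) between 0.50 and 0.95 (median 0.83) for genes that were picked for a rise in the same 4 tumors. Once the mean of each arm was subtracted, the correlations ran between -0.87 (Defb28 and Dmbt1) and 0.85 (Apoc1 and Adamts16), with a median of 0.23 and 10 of 28 below 0. These correlations are descriptions over 8 tumors that share their treatments.

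**Figure D2:**
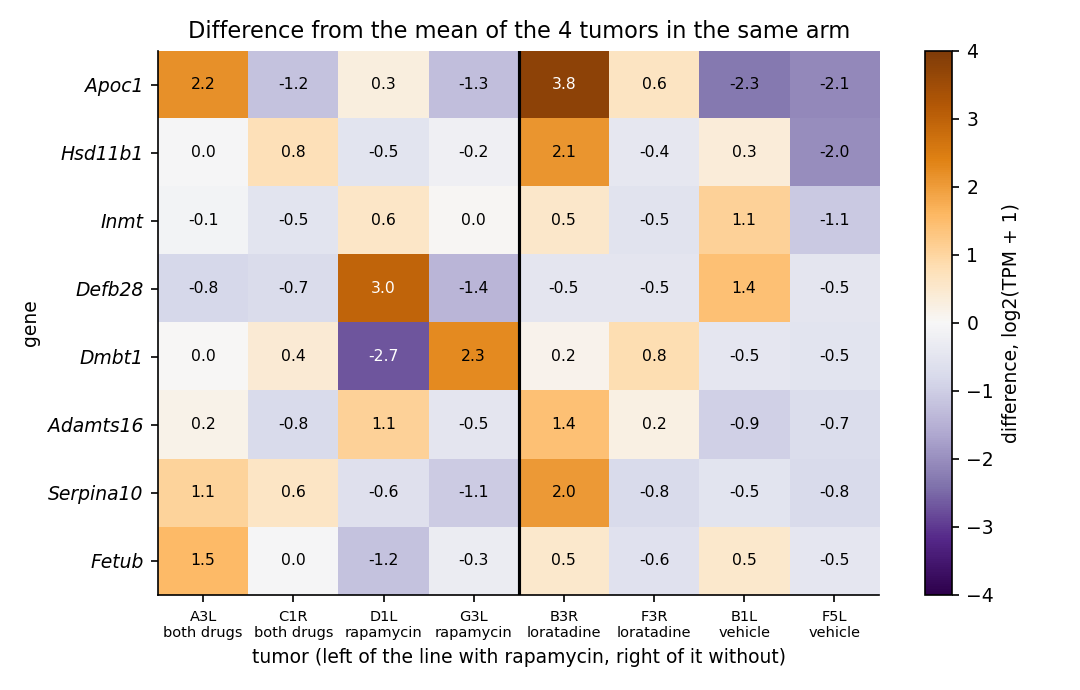
Difference of each gene in each tumor from the mean of the 4 tumors of its arm, on the log2(TPM + 1) scale. Rows are genes and columns are tumors, with rapamycin left of the line. B3R is high for Apoc1 (3.76), Hsd11b1 (2.10) and Serpina10 (2.04), and D1L is high for Defb28 (2.97) and low for Dmbt1 (-2.70).

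Loratadine was not used to choose the genes, so its differences can be tested. Over the 4 tumors with loratadine against the 4 without it, none of the 8 genes passed the threshold, and neither did any gene tested (background 0%). The smallest adjusted p of the 8 was 0.58 (limma), 6 genes were higher and 2 lower, and the median log2 fold change was 0.71, against 0.10 over all genes tested. At an unadjusted p under 0.05 there were Apoc1 (2.68, standard error 1.05, adjusted p = 0.59) and Serpina10 (1.47, standard error 0.53, adjusted p = 0.58). Over all genes 8.31% were under it. Defb28, Dmbt1 and Serpina10 entered this test only through their levels with rapamycin, so nothing is read from how many of the 8 were under it. The standard errors of the 8 genes ran between 0.47 and 1.05, and a p that misses the threshold does not show that loratadine left a gene at its level.

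Without rapamycin, Defb28, Dmbt1 and Serpina10 did not reach 1 TPM in 2 of the 4 tumors, so these 3 are in the test only through their levels with rapamycin. Of the other 5, Apoc1 and Adamts16 had both loratadine tumors above both vehicle tumors, beside 32.5% of the 13805 genes that passed the filter in these 4 tumors, and none had both below (background 15.8%). Loratadine against vehicle passed for 0 of 8 genes and for 3 of all genes tested, or 0.0199%. Fitted to these 2 groups alone, it passed for 0 of the 5 (smallest adjusted p = 0.25 from limma) and for 8 of 13805 genes, or 0.058%. Apoc1 differed most, with a log2 fold change of 4.38 ± 1.30 (SE, adjusted p = 0.34 from limma), and Adamts16 had one of 1.64 (standard error 0.62, adjusted p = 0.38). Hsd11b1 gave 1.68 (standard error 0.96, adjusted p = 0.51), but 0.43 without B3R, 0.50 without F5L and 2.94 without F3R, while Apoc1 ran from 2.81 to 5.94 and Adamts16 from 1.05 to 2.24 with 1 tumor left out. Apoc1 and Adamts16 were under an unadjusted p of 0.05, beside 12.1% of all genes. Both loratadine tumors are from the right side and both vehicle tumors from the left, so side and loratadine cannot be told apart here.

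With rapamycin in both groups, Hsd11b1, Serpina10 and Fetub had both tumors with both drugs above both with rapamycin alone (background 19.5% of the 14480 genes that passed the filter in these 4 tumors), and Inmt had both below (background 6.51%). None of the 8 passed the threshold for both drugs against rapamycin, nor did any gene tested (background 0%). Serpina10 had a log2 fold change of 1.65 ± 0.80 (SE) and Fetub one of 1.5 ± 0.63 (SE), each with an adjusted p of 1 (limma). Fetub was the 1 gene of the 8 under an unadjusted p of 0.05, beside 2.38% of all genes. Defb28 was lower with both drugs by the same model, with a log2 fold change of -1.55 and a standard error of 1.29, and that difference rests on D1L.

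The rapamycin difference was compared between tumors with and without loratadine by the interaction of the drugs. All 8 genes were higher with both drugs than with loratadine alone (median log2 fold change 3.82), and all were higher with rapamycin than with vehicle (median 4.55), values that the choice of the genes used. The interaction passed for 0 of 8 genes and for 1 of all genes tested, or 0.00662%. Defb28, Dmbt1 and Serpina10 are in this test too only through their levels with rapamycin. Adamts16 had the largest difference relative to its error, with a rapamycin log2 fold change of 2.5 in the presence of loratadine and 4.73 in its absence, and an interaction of -2.24 ± 0.87 (SE, adjusted p = 0.93 in limma). It was the only one of the 8 under an unadjusted p of 0.05, beside 4.76% of all genes. For Apoc1 these rapamycin log2 fold changes were 4.21 and 7.61, with an interaction of -3.40 (standard error 1.84), and for Fetub 4.02 and 2.45, with an interaction of 1.57 (standard error 0.89). A rapamycin difference that depends on loratadine was thus not detected for these genes at the precision of these 8 tumors. In each of them every tumor with rapamycin lay above every tumor without it. Genes that rose only with or only without loratadine were therefore not among those chosen, and the test says nothing about such genes.

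**Figure D3:**
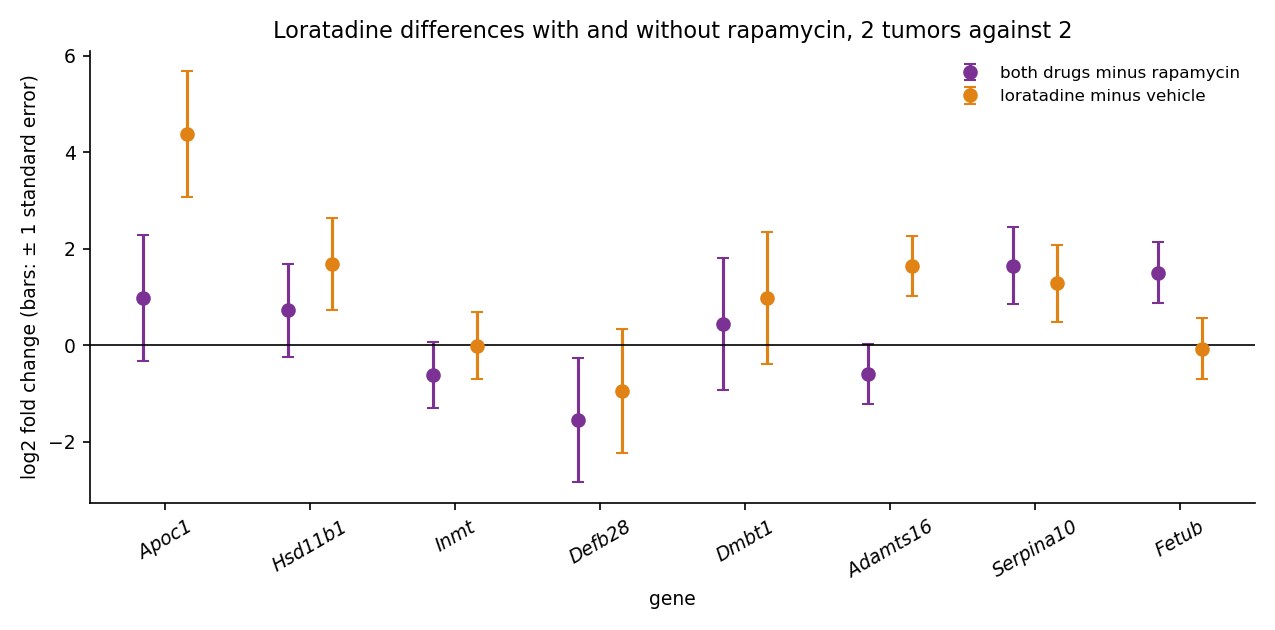
Log2 fold change of each gene for both drugs minus rapamycin (purple) and loratadine minus vehicle (orange), with bars of 1 standard error, 2 tumors against 2. Apoc1 without rapamycin (4.38) is the largest difference, and none passed the threshold.

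Genes of the same families and pathways were then examined, leaving out the 8 genes. Of 203 such genes 101 were tested, 16 (15.8%) rose and 8 (7.92%) fell with rapamycin, near the 12% and 7.88% of all genes. Their median log2 fold change was 0.37, against 0.12 over all genes. Median-of-ratios scaling moved the median of all genes to -0.02 and that of the related genes to 0.22. It moved the split of calls to 11 higher and 12 lower, beside 7.54% and 12% of all genes. These calls also changed with single tumors, and so did the shares of all genes. Without F5L 3 rose and 1 fell (3.17% and 3.22% of all genes), and without A3L 4 and 1 (3% and 3.38%). Without B1L these were 7 and 1 (4.19% and 4.1%), without D1L 8 and 2 (3.9% and 3.74%), and without F3R 8 and 3 (6.7% and 5.18%). Only Pros1 and Cd6 passed with each tumor left out in turn. Under that scaling and under quantile normalization each of the 24 called genes kept its direction.

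Among 15 tested apolipoproteins and genes of lipoprotein handling 4 rose and 1 fell, with a median of 0.66. Apoc4, a neighbour of Apoc1 in the apolipoprotein cluster, was at 33.28 and 5.945 TPM with both drugs, 31.95 and 9.607 TPM with rapamycin, 5.026 and 1.083 TPM with loratadine, and 0.7023 and 2.108 TPM with vehicle. It rose by 2.57 (standard error 0.62, adjusted p = 0.027 from limma), and its tumors did not overlap between the arms. Apod, a lipocalin, rose by 1.35 (standard error 0.37, adjusted p = 0.039). Clu and Abcg1 also rose, and were named after their values were seen. Apoc2, the activator of lipoprotein lipase, was at 282 and 75.82 TPM with both drugs, 36.42 and 9.011 TPM with rapamycin, 9.626 and 7.214 TPM with loratadine, and 8.215 and 13.36 TPM with vehicle. Its arms overlapped in G3L, and it did not pass (2.37, standard error 0.76, adjusted p = 0.06), but without G3L it did (3.07, adjusted p = 0.023). Apoe, the most abundant of the cluster, had a log2 fold change of 1.11 (adjusted p = 0.075). The calls of Apoc4, Apod, Clu and Abcg1 each failed in at least 5 of the 8 fits with 1 tumor left out.

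Around Hsd11b1, the genes that activate, inactivate and receive glucocorticoid gave 3 rises and no fall of 8 tested (median 0.38). H6pd, which makes the NADPH that Hsd11b1 uses, averaged 118.4 ± 23.6 TPM with rapamycin and 73.11 ± 15.8 TPM without it (SD, n = 4 each) and rose by 0.69 (standard error 0.18, adjusted p = 0.035 from limma). Hsd11b2, which inactivates glucocorticoid, was low throughout, at 8.635 and 3.2 TPM with both drugs, 0.7944 and 4.956 TPM with rapamycin, 1.659 and 0.4908 TPM with loratadine, and 0.2212 and 0.1504 TPM with vehicle. It rose by 1.57 (standard error 0.43, adjusted p = 0.039), with D1L below B3R. Srd5a1, a steroid 5-alpha-reductase, rose by 1.0 (standard error 0.22, adjusted p = 0.021), and Nr3c1, the glucocorticoid receptor, did not pass (0.07, standard error 0.16). Of 12 tested target genes of that receptor none rose and 4 fell. Mt2, a metallothionein, fell by 2.20 (adjusted p = 0.022), Ddit4, an inhibitor of mTORC1, by 1.33 (adjusted p = 0.022) and Mt1 by 1.19 (adjusted p = 0.049), and Pdk4, named after its values were seen, was the fourth. The median of the targets was -0.08. Srd5a1 failed without A3L or F5L, Ddit4 without B1L, D1L or F5L, Mt2 without A3L, B1L, F3R or F5L, and H6pd, Hsd11b2, Mt1 and Pdk4 in at least 6 of the 8 fits with 1 tumor left out.

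Around Inmt, 0 of 11 tested small-molecule methyltransferases and genes of SAM supply rose, and 1 fell. That gene was Ahcy, which clears the product of methyl transfer, with a log2 fold change of -0.58 (adjusted p = 0.049 from limma) that passed in 1 of the 8 fits with 1 tumor left out. Of 4 tested genes of indoleamine synthesis and breakdown, Maoa, the monoamine oxidase, fell by 1.77 (standard error 0.37, adjusted p = 0.019) and failed only without A3L. It was at 19.83 and 22.47 TPM with both drugs, 33.55 and 16.38 TPM with rapamycin, 59.51 and 64.26 TPM with loratadine, and 55.32 and 178.9 TPM with vehicle, so that the arms did not overlap and Maoa moved opposite to Inmt.

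Around Defb28, 28 of the other 41 beta-defensins were at 0 in every tumor and 3 were tested. Defb42 rose by 1.01 (standard error 0.19, adjusted p = 0.014 from limma), at 1.335 to 2.245 TPM with rapamycin and 0.3644 to 0.5766 TPM without it, and failed only without A3L. Of 12 tested proteins with scavenger receptor cysteine-rich domains, the family of Dmbt1, Cd6 rose and Msr1 fell. Cd6, a T cell surface protein, rose by 1.12 (standard error 0.21, adjusted p = 0.014), and Msr1, a macrophage scavenger receptor, fell by 1.70 (standard error 0.41, adjusted p = 0.027) but failed in 5 of the 8 fits with 1 tumor left out. Of 6 T cell markers 5 rose, with a sum of 26.3 to 78.27 TPM with rapamycin and 6.003 to 23.35 TPM without it, which moves with Cd6. The part of T cells in any of these genes was not tested.

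Around the protease and the inhibitors the families mostly gave no call. Of 15 tested ADAMTS genes only Adamts2, a procollagen protease, rose (0.85, standard error 0.23, adjusted p = 0.036 from limma), and of 6 tested clade A serpins only Serpina3g, an inhibitor of cysteine proteases (1.74, standard error 0.47, adjusted p = 0.037). Each of these passed in 1 of the 8 fits with 1 tumor left out. Proz, which codes for protein Z, was at 0.07173 to 0.5096 TPM in the 8 tumors and F11 at 0 in all but A3L, so neither was tested, and F10 did not pass (-0.80, adjusted p = 0.18). Of 10 tested coagulation factors and inhibitors 3 rose, with a median over the list of -0.17. Pros1, protein S, averaged 91.32 ± 24.85 TPM with rapamycin and 49.48 ± 14.49 TPM without it (SD, n = 4 each) and rose by 0.88 (standard error 0.13, adjusted p = 0.0099). Serpinc1, antithrombin, rose by 1.08 (standard error 0.21, adjusted p = 0.015), and Thbd, thrombomodulin, by 0.74 (standard error 0.20, adjusted p = 0.037). Serpinc1 failed without A3L or F5L, and Thbd passed in 1 of the 8 fits with 1 tumor left out.

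Around Fetub, 2 of 5 tested genes of the cystatin superfamily and its targets rose, with a median of 0.88. Kng2, a kininogen gene and the nearest tested gene after Fetub, was at 47.97 and 33.76 TPM with both drugs, 4.987 and 3.048 TPM with rapamycin, 3.841 and 1.004 TPM with loratadine, and 1.897 and 1.147 TPM with vehicle. Both of its tumors with both drugs thus stood far above the other 6, as those of Serpina10 did to a lesser degree, and it rose by 2.35 (standard error 0.57, adjusted p = 0.028 from limma), though not with A3L, B3R, C1R, D1L or F5L left out. Cst3, cystatin C, rose by 1.24 (standard error 0.25, adjusted p = 0.017), and failed without A3L, B1L or F5L. Ahsg, the paralog of Fetub, reached at most 0.2995 TPM, and Astl, the gene of ovastacin, was at 0 in every tumor but C1R.

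**Figure D4:**
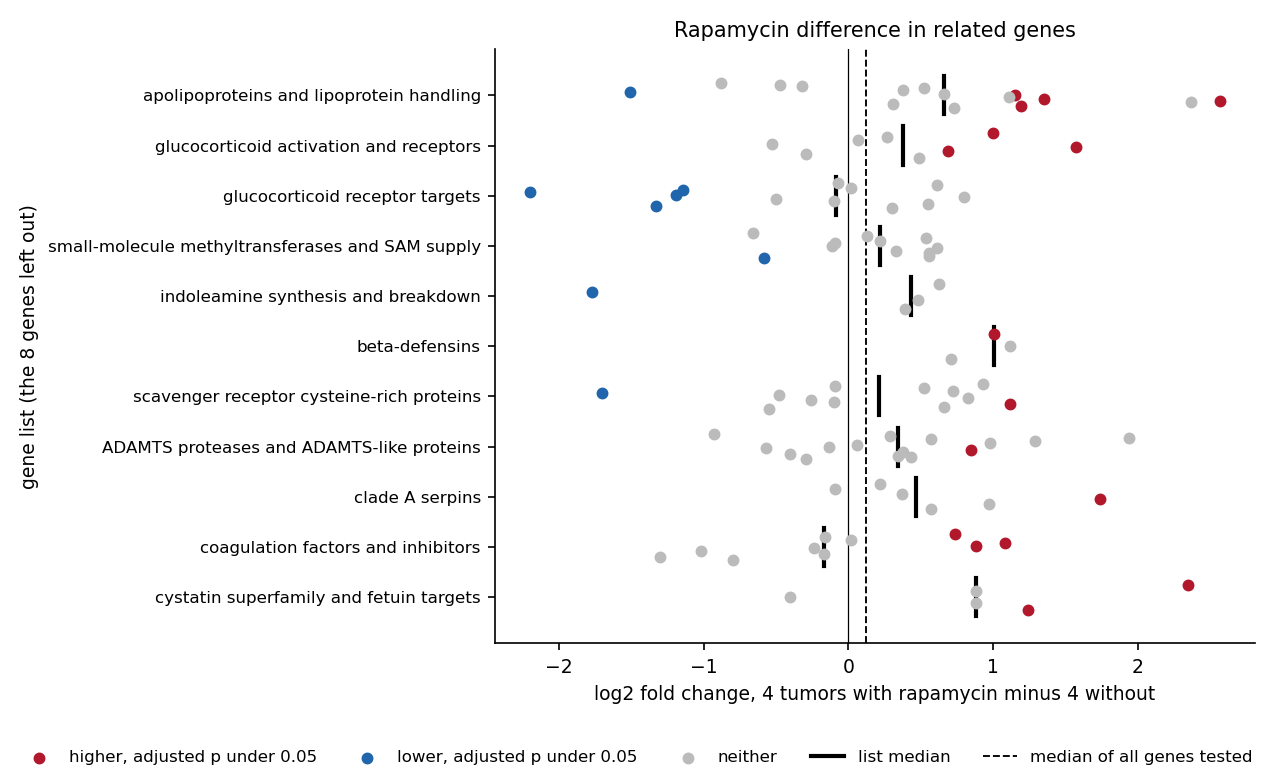
Rapamycin log2 fold change, 4 tumors with it minus 4 without, of the tested genes in each family or pathway list. Points are genes, short black lines are list medians and the dashed line is the median of all genes tested (0.12). Apoc4 and Kng2 lie farthest to the right of the genes that rose (2.57 and 2.35), and all 4 calls among the receptor targets are falls.

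Most of the tested genes nearest to the 8 on their chromosomes did not pass the rapamycin test. Genes that did not pass the filter were skipped, so some neighbours lay far away, up to 2476597 bases (Ndufs6 from Adamts16). Of the 48 tested neighbours, 3 on each side of each gene, 8 (16.7%) rose and 1 (2.08%) fell, beside 12% and 7.88% of all genes, with a median log2 fold change of 0.33. Those with the largest rises were Apoc4 at 8068 bases from Apoc1, Kng2 at 46088 bases from Fetub and Serpina3g at 604801 bases from Serpina10, all described above. The 1 that fell was Gars, a glycyl-tRNA synthetase gene at 91122 bases from Inmt and named after its values were seen, with a log2 fold change of -1.51 (adjusted p = 0.0082 from limma), and it passed with each tumor left out. The count of rises changed with single tumors, and so did the share of all genes. It was 0 without A3L, D1L or F5L, where 3%, 3.9% and 3.17% of all genes rose. It was 1 without B1L (4.19% of all genes), 2 without F3R (6.7%) and 4 without B3R (7.94%). Median-of-ratios scaling gave 4 rises and 5 falls, beside 7.54% and 12% of all genes. Defb29, the beta-defensin next to Defb28 and named after its values were seen, did not pass (1.12, adjusted p = 0.071), but it was above 0 in B1L alone of the tumors without rapamycin (0.1725 TPM) and highest in D1L (3.718 TPM), the same 2 tumors in which Defb28 stood out.

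For each gene the 3 genes with the most similar log2(TPM + 1) over the 8 tumors were taken from 12672 with a mean of at least 1 TPM. Because the 8 tumors fall into 2 arms, these correlations are high for many genes and are given as descriptions. St5, Tnni3 and Tbc1d17 were nearest to Apoc1 (Pearson r up to 0.995), March2, Uap1 and Pygo2 to Hsd11b1 (0.988), and Nckipsd, Oma1 and Hes1, a transcription factor of the Notch pathway, to Inmt (0.987). Rasl12, Zfp964 and Efnb1 were nearest to Defb28 (0.981), and Sox8, Il20rb and Efemp2 to Dmbt1 (0.972). Sox8, a transcription factor, averaged 2.905 TPM with rapamycin and 0.09322 TPM without it. Safb, Heyl and Ankrd16 were nearest to Adamts16 (0.992), Phc2, Snx22 and Tmem254a to Serpina10 (0.986), and Fam81a, Ccnt2 and Ddx58 to Fetub (0.978). Of these 24 genes Heyl, another transcription factor of the Notch pathway, had the largest rapamycin difference on the log2(TPM + 1) scale, at 10.06 TPM with rapamycin against 1.716 TPM without it on average and a log2 fold change of 2.11. No gene appeared among the nearest of more than 1 of the 8.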

How the data were processed

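The members and the gene lists were chosen with earlier results of these data known. The authors deposited TPM per gene and tumor in 2 tables, of which the first was taken, as no value differed by more than 5e-07 TPM. By the paper's methods these values come from Kallisto on mm9, summed to genes with tximport, while STAR 2.4.0f1, bedtools and SAMtools 0.1.18 stand in the submitters' processing notes beside mm9, and which of these gave the values is not settled here. Listed TPM summed to 993546 to 994645 per tumor. The paper tested counts with DESeq2, and counts were not used here.

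Log2(TPM + 1) was fitted with limma 3.58.1 in R 4.3.3 (two-sided, intensity trend in the empirical Bayes step, Benjamini-Hochberg over 15095 genes, threshold 0.05). Drug effects come from an additive model (5 residual degrees of freedom), and pairs of treatments and the interaction from 4 group means (4 residual degrees of freedom). The codes give each tumor its own mouse, and p-values measure the spread between these tumors. The fit was tested on simulated data. Alternatives were pseudocounts of 0.1 and 0.5, other filters, scalings and limma settings, the second table, each tumor left out, group means, fits of 2 groups alone, a term for the side, and the cage as a block.

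Named were the 8 genes, up to 3 genes past the threshold with the largest change per family list and among the neighbours, direct partners of the 8, and the 3 genes most like each. Some genes that this rule takes are left out of the text. Family lists cover lipoproteins, glucocorticoid, methyl transfer, indoleamines, defensins, scavenger receptors, ADAMTS, serpins, coagulation and cystatins, and marker lists cover hepatocytes, macrophages, fibroblasts, adipocytes, renal tubule, mammary and simple epithelium, mast cells, muscle, T cells, endothelium and keratinocytes. Coordinates are from the NCBIM37 annotation, which holds 25388 of the gene identifiers. Plots were made in Python 3.11.15 with matplotlib 3.10.9.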

Additional observations from a re-analysis of the deposited data

Results flagged for a closer look

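In 4 of the 16 sets formed by the 8 genes and the 2 arms, 1 tumor lay so far from the other 3 that its gap to the nearest of them, over the whole range, passed Dixon's 95% limit. Chance gives this in about 1 of 20 sets of normally distributed values, a rate that was not checked for TPM, and each arm here holds 2 treatments, so that a treatment difference can produce it too. With rapamycin, Defb28 stood at 251.3 TPM in D1L. Without rapamycin, Apoc1 stood at 104.2 TPM and Serpina10 at 6.229 TPM, both in the loratadine tumor B3R, and Defb28 at 2.749 TPM in the vehicle tumor B1L, with the other 3 tumors listed at 0, so that any value above 0 there would pass. On the log2(TPM + 1) scale the ratio of gap to range was 0.84 for Defb28 in D1L and 0.92 for Serpina10, and 0.52 for Apoc1, which no longer passed.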

How the results depend on the processing

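The median rapamycin log2 fold change of the 8 genes (3.96) stayed between 3.44 and 4.74 under 20 alternatives. It was 4.74 with a pseudocount of 0.1, and 3.44 to 4.29 with 1 tumor left out, lowest without F5L. With a pseudocount of 0.1 the log2 fold change was 7.06 for Defb28, 6.26 for Dmbt1 and 5.13 for Serpina10, the 3 genes with values at or near 0. No gene of the 8 passed for loratadine, for loratadine against vehicle, for both drugs against rapamycin or for the interaction under any alternative, including each fit with 1 tumor left out. With the cage as a replicate block, for the 4 tumors of cages B and F, 0 of the 5 genes that could be tested passed (smallest adjusted p 0.19, with 1 residual degree of freedom). The deviations of the cage B tumors correlated at -0.02 across genes, while the block lowered the standard error of Hsd11b1 to 0.28, against 1.11 in these 4 tumors without it, and that of Fetub to 0.26, against 0.50. The related genes with a call numbered 24, but 41 with array weights, 7 with no filter on low values, 5 with the side as a term and 4 to 22 with 1 tumor left out. The neighbours with a call numbered 9, but 20 with array weights, 3 with no filter, 1 with the side as a term and 1 to 10 with 1 tumor left out. The shares of all genes moved in these fits too. They were 22% higher and 12.6% lower with array weights, 4.77% and 3.28% with no filter, and 2.95% and 3.28% with the side as a term. The side as a term gave the same counts as leaving out A3L, the only left-side tumor that received loratadine. Of all calls for rapamycin, 60.4% were higher, but 38.5% with median-of-ratios scaling and 47.7% with quantile normalization. Of 81 results under 1579 alternative values none that was called reversed, 224 calls of single related or neighbouring genes were lost, and 3 were gained, all of Apoc2. Differences that were not called changed sign in 26 values of 15 results. With 1 tumor left out, both drugs against rapamycin ran from -1.38 to 0.20 for Adamts16, -0.71 to 2.67 for Apoc1, -3.74 to 0.64 for Defb28 and -2.05 to 2.92 for Dmbt1. Likewise the interaction ran from -2.79 to 1.59 for Defb28, -3.03 to 1.94 for Dmbt1, -2.22 to 0.29 for Hsd11b1, -1.69 to 0.46 for Inmt and -1.03 to 1.77 for Serpina10. Loratadine against vehicle ran from -0.60 to 0.47 for Fetub, -1.09 to 1.07 for Inmt and -0.12 to 2.68 for Serpina10, the loratadine effect from -0.23 to 1.76 for Dmbt1 and -0.81 to 0.05 for Inmt, and the rapamycin effect from -0.02 to 0.17 for Nr3c1. With a pseudocount of 0.1 the interaction was 0.85 for Defb28 and -0.40 for Serpina10, and loratadine against vehicle was 0.08 for Inmt (0.03 with a pseudocount of 0.5). The loratadine effect on Inmt was 0.03 with array weights, and Nr3c1 was at -0.10 with median-of-ratios scaling. The cause of these changes was not tested. Depth is unknown, so counting error could not be separated from the spread between tumors.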

Other observations

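Most beta-defensins other than Defb28 were at or near 0, and whether they differ from other genes was not tested. Of the other 41, 7 (17.1%) were above 0 in at least 1 tumor with rapamycin and at 0 in all 4 without it, and 1 (2.44%), Defb48, the other way round. Over all 35539 genes listed these shares were 4.47% and 4.55%. Of the 10 others on chromosome 2, where Defb28 lies, 4 were above 0 only with rapamycin (Defb20, Defb22, Defb23 and Defb25), 4 were at 0 in every tumor, and Defb29 and Defb45 were above 0 in both arms. Defb25 was at 0 and 0.5477 TPM with both drugs and at 0.5779 and 0.5582 TPM with rapamycin, and at 0 in the 4 tumors without it. Defb35, on chromosome 8, was at 0 and 0.8383 TPM with both drugs and at 2.395 and 0.7713 TPM with rapamycin, and at 0 in the 4 tumors without it. These genes were named after their values were seen, and with unknown depth a 0 sets no upper limit on a level.

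Of the marker lists not yet described, blood endothelium had 2 of 7 markers lower with rapamycin (Cdh5 and Emcn, sum 32.62 to 52.73 TPM with it and 57.73 to 102.6 TPM without it), and skin keratinocyte 1 of 3 tested higher (Sbsn, sum 16.48 to 38.04 TPM with it and 12.2 to 25.77 TPM without it, with Dsg1a at 0 in every tumor). Mast cell and skeletal muscle markers had no call, and the tumors named next were singled out after their values were seen. The mast cell sum reached 579.4 TPM in G3L, where Dmbt1 was highest. It was 105.7 TPM in A3L, 68.29 TPM in D1L and 56.22 TPM in C1R, an order that Dmbt1 did not follow (28.46, 3.439 and 37.26 TPM). The muscle sum reached 167.2 TPM in C1R, where Hsd11b1 was highest, but was 3.549 TPM in A3L, 3.771 TPM in D1L and 4.147 TPM in G3L. The part of either cell type in those genes was not tested.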
